A study of Mus musculus with 14 samples.

Results

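In hippocampal neuronal nuclei of fear-conditioned mice, 1176 autosomal chromatin regions had a higher accessibility value in each of 4 Late libraries than in any of the other 10 libraries of the study. They were 0.697% of the 168650 regions that could qualify, out of 191271 regions in the table. The members were selected on the measured values themselves. Each library was divided by its own median over all regions, regions off the autosomes or with a mean below 0.83 RPKM (reads scaled to region length and to the size of the library) were left out, and the lowest Late value had to exceed the highest value of the other 10 libraries. Late against any other group is therefore described here without a test.

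The assay was ATAC-seq, in which a transposase inserts sequencing adapters into DNA that is not covered by nucleosomes or other proteins. Read density over a region thus measures how open its chromatin is. Regulatory DNA such as promoters and enhancers is typically open in the cells that use it, and neuronal activity is known to change the accessibility of many neuronal enhancers. Expression of Arc, an immediate early gene, follows such activity and is widely used to mark the neurons that took part in learning. A measurement on a pool of nuclei cannot tell a larger share of nuclei with an open region from a wider opening in each nucleus.

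All animals came from a cross of ArcCreERT2 with R26R-STOP-floxed- yellow fluorescent protein (eYFP) mice, with genotype +/+. In this line a Cre recombinase driven by Arc and activated by 4-hydroxytamoxifen switches on the yellow reporter. After housing in the dark, all received 4-hydroxytamoxifen and then, on day 0, contextual fear conditioning with foot shock. Late (n = 4 libraries) was collected on day 5 with no recall. Reactivated (n = 3) was re-exposed to the fear cue on day 5, and its replicates 1, 2 and 3 were labelled with collection on days 5, 6 and 7. Early (n = 3) and Basal (n = 4) carry the same label of collection on day 0 with no recall. Sorting used antibodies to Arc, GFP and the neuronal protein NeuN, but the labels do not say which sorted fraction each group is. The design text gives pools of 10 to 12 mice and 10000 nuclei per condition, in 3 biological replicates. The labels do not tie libraries to mice, so p-values measure the spread between libraries only. The regions carry no gene names and their mm9 coordinates were not matched to genes or sequence here, so the sort was not checked against marker loci and a region's place in or between genes is not given.

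The Late libraries stood apart from the other 10 in several measures of the whole table. Their totals, recovered from the RPKM steps, were 46134255 to 47375214 reads, against 54257224 to 56251679 reads in the other 10. Reads inside regions made up 19.1% ± 0.661 in Late (SD, n = 4), 23.1% ± 1.53 in Reactivated (n = 3), 19.9% ± 7.17 in Early (n = 3) and 15.7% ± 2.68 in Basal (n = 4). The top 0.1% of regions began at 4.1 to 4.39 times the library median in Late, against 5.43 to 10.2 times in the other 10. Of 99 regions on unplaced sequence, 69 to 72 had more than 1 read in each Late library, against 0 in each of the other 10. The totals, the start of the top 0.1% and the reads on unplaced sequence divide the libraries exactly as the Late label does, whereas the share of reads inside regions does not. The Late condition and the making or processing of the Late libraries cannot be told apart in any value below. Between Late replicates the mean chi-square of read counts over eligible regions was 1.76 to 1.99, where 1 is sampling noise. It was 2.69 to 4.8 in Reactivated, 3.34 to 6.78 in Early and 2.34 to 3.89 in Basal. No 2 libraries of a group were thus alike to within sampling noise over eligible regions. Over the members alone, where the rule favours a small Late spread, the mean chi-square was 0.954 to 1.19 in Late. These values do not show whether the libraries of a group came from separate pools of mice.

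If the order of the 14 libraries were random in each region, 168.5 of the eligible regions would have the 4 Late values on top. The 1176 members were 6.98 times that number. The counts of all 8 such patterns, 1 group above or below all others, exceeded the random number, by 2.56 to 52.0 times. Late was below all other libraries in 2627 regions, which is 15.6 times its random number. Reactivated was above all others in 2693 regions (5.81 times 463.3, the number for 3 libraries, 1 in 364) and below them in 1643. Early was above in 1185 and below in 3908, at 2.56 and 8.43 times the random number. Basal was above in 5047 and below in 8754, at 30.0 and 52.0 times. The number of members was thus no larger, relative to a random order, than several of the others. The counts moved with the scaling. On the deposited RPKM Late was above all others in 1161 regions and below them in 774, Reactivated in 4073 and 853, Early in 719 and 1628, and Basal in 1225 and 15942. When the 4 Late libraries were averaged to 1 value, 5717 regions had that value on top, against 15331.8 for a random order of 11 values, although an average varies less than a single library.

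Across the members the median level was 1.46, 1.42, 1.44 and 1.41 times the library median in the 4 Late libraries. It was 0.711, 0.771 and 0.806 in Reactivated, 0.781, 0.845 and 0.748 in Early, and 0.65, 0.71, 0.686 and 0.70 in Basal. The members were thus mostly above the middle of the table in Late and mostly below it elsewhere, and the Late medians varied little among themselves. Between 106 and 118 members lay below the library median in each Late library, against 786 to 982 in each of the other 10. Over all eligible regions the medians were 1.05 to 1.08 in every library. The members took 0.773 to 0.777% of all reads inside regions in Late, against 0.329 to 0.453% in the other 10.

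**Figure D1:**
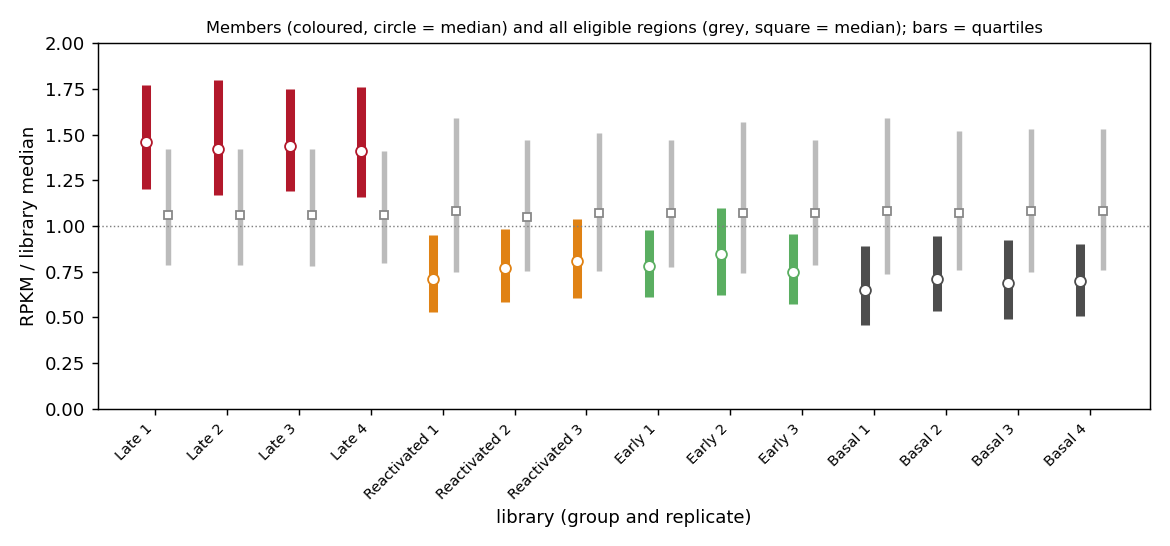
Level of the 1176 members in each of the 14 libraries, in multiples of the library median, with the groups in the order Late, Reactivated, Early and Basal. The Late medians lie at 1.41 to 1.46 and those of the other 10 libraries at 0.65 to 0.845, below the medians of 1.05 to 1.08 over all eligible regions.

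The separation of single libraries was narrow in most members. The lowest Late value was a median of 1.09 times the highest other value, with quartiles of 1.03 and 1.19 and a maximum of 2.95. It was at least 1.1 times in 530 members (45.1%), at least 1.25 times in 208 (17.7%), at least 1.5 times in 65 (5.53%) and at least 2 times in 10 (0.85%). Group means lay further apart. The Late mean was a median of 1.87 times the mean of the other 10 libraries over the members, with a range of 1.24 to 5.79, and 0.953 times over all eligible regions. It was at least 2 times in 461 members (39.2%), and 1354 eligible regions (0.803%) reached that fold. All 15 eligible regions with a fold of at least 4 were members.

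**Figure D2:**
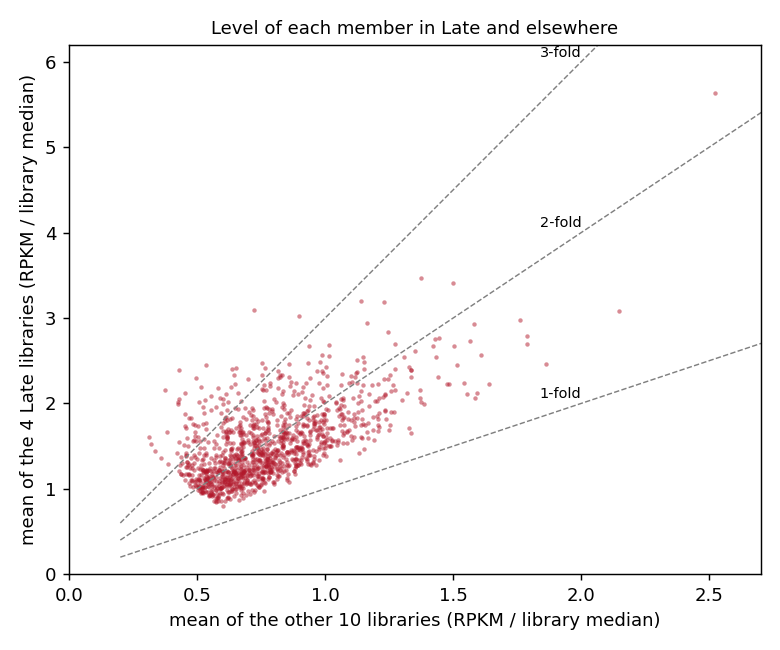
Mean of the 4 Late libraries against the mean of the other 10 for each of the 1176 members, both in multiples of the library median, with dashed lines of equal ratio. All points lie above the line of equality, as the rule requires, and 461 lie at or above the 2-fold line.

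Counting error was large for single libraries. The median member had 48 to 52 reads per Late library, 30 to 34 per Reactivated library, 23 to 41 per Early library and 19 to 23 per Basal library. In 16 members (1.36%) the exact Poisson 95% intervals of the lowest Late and the highest other library did not overlap. These intervals cover counting error only, and the rule itself sets which of the values is higher. Eligible regions outside the members cannot meet this, because their lowest Late value is not above the highest other. The coefficient of variation between Late replicates had a median of 12.1% over the members and 19.9% over eligible regions. A rule that needs 4 high values favours regions with a small Late spread, so that difference is not a finding. The rule only limits the other groups from above. In Basal the median was 26.5% over the members and 25.5% over eligible regions. It was smaller over the members in Reactivated (20.1% against 23.8%) and in Early (23.0% against 27.6%).

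The member with the widest gap between Late and the rest was chr7:93924103-93924707 (604 bases). It had 1.56, 1.39, 1.47 and 1.34 times the library median in Late, 0.346, 0.454 and 0.401 in Reactivated, 0.243, 0.249 and 0.425 in Early, and 0.309, 0.314, 0.402 and 0.230 in Basal. All 4 Late libraries, with 52 to 60 reads, were clear of the others, with 8 to 20 reads. Its means were 1.44 ± 0.0984 in Late (SD, n = 4), 0.400 ± 0.054 in Reactivated (n = 3), 0.306 ± 0.103 in Early (n = 3) and 0.314 ± 0.0705 in Basal (n = 4), a Late mean 4.27 times that of the other 10. The ranges of the 3 other groups overlapped in part, with the highest of their values in Reactivated.

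The second widest gap, 2.46 times, was also on chromosome 7, at chr7:111392817-111393166 (349 bases). Values were 2.32, 2.13, 2.04 and 1.47 in Late, 0.493, 0.510 and 0.512 in Reactivated, 0.263, 0.185 and 0.519 in Early, and 0.267, 0.544, 0.348 and 0.597 in Basal. Late replicate 4 was the lowest of its group and still stood above every other library. At chr7:102230803-102231073 (270 bases) the Late values were 2.14, 2.27, 2.09 and 3.28, against 0.091, 0.406 and 0.519 in Reactivated, 0.408, 0.0797 and 0.504 in Early, and 0.979, 0.843, 0.750 and 0.771 in Basal. There the 4 Basal values lay between the Late values and all values of the other groups, so this region had 3 levels. The lowest count behind it was 2 reads and the highest 57.

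At chr6:25036983-25037595 (612 bases) the Late libraries had 1.81, 2.40, 1.89 and 1.95, against 0.281, 0.470 and 0.709 in Reactivated, 0.779, 0.193 and 0.395 in Early, and 0.483, 0.372, 0.728 and 0.680 in Basal. The spread among the other libraries was wide and shared by all 3 groups. The largest fold among the 8 widest gaps, 5.55 times, was at chr1:76939294-76939682 (388 bases). Its Late values were 1.96, 2.29, 2.22 and 3.08, against 0.158, 0.848 and 0.164 in Reactivated, 0.378, 0.194 and 0.389 in Early, and 0.601, 0.684, 0.522 and 0.358 in Basal. Reactivated replicate 2, labelled day 6, was the highest other library, while replicates 1 and 3 of that group were the lowest of all 14.

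The longest of these 8 regions, chr18:89400626-89401499 (873 bases), had 1.95, 2.31, 2.39 and 2.06 in Late, 0.422, 0.549 and 0.555 in Reactivated, 0.504, 0.863 and 0.554 in Early, and 0.499, 0.543, 0.649 and 0.676 in Basal. It rested on 103 to 141 reads per Late library and 24 to 70 per other library, the most of the 8. The region chr2:150591376-150591723 (347 bases) had 2.38, 3.21, 2.56 and 2.55 in Late, 1.03, 0.987 and 1.07 in Reactivated, 1.00, 0.589 and 0.697 in Early, and 1.03, 0.984, 0.934 and 1.05 in Basal. Reactivated and Basal there sat near the middle of the table, unlike at the other 7, where most values outside Late were under it. The last of the 8, chr2:61935885-61936472 (587 bases), averaged 1.96 ± 0.131 in Late (SD, n = 4), 0.411 ± 0.219 in Reactivated (n = 3), 0.456 ± 0.194 in Early (n = 3) and 0.654 ± 0.155 in Basal (n = 4).

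**Figure D3:**
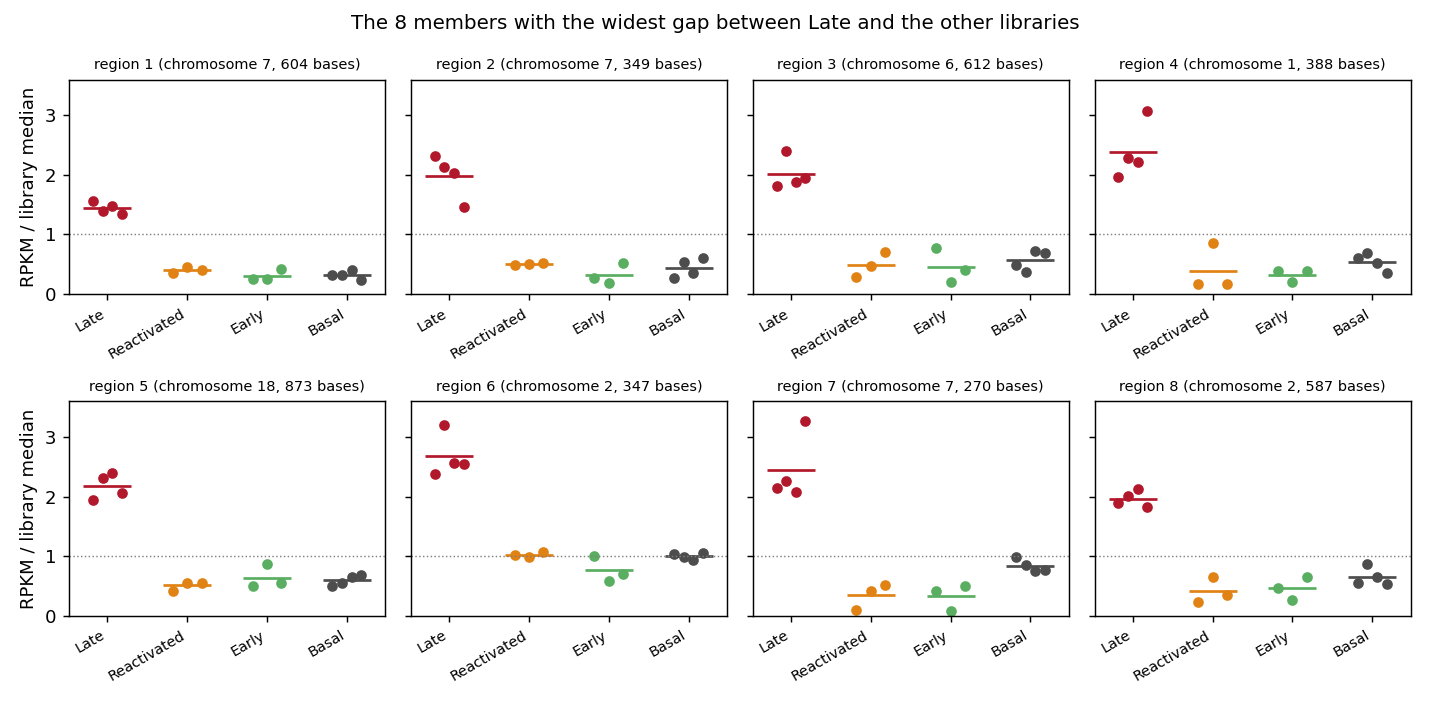
Values of the 8 members with the widest gap between the lowest Late and the highest other library, 1 point per library in multiples of the library median, with group means. In each panel the 4 Late points lie at least 2.09 times above the highest of the other 10.

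The 4 regions with the highest Late level were less cleanly separated than those with the widest gaps, and most of them were short. The highest, chr9:24346472-24346604 (132 bases), had 7.27, 5.38, 4.49 and 5.41 in Late, 3.16, 3.94 and 2.51 in Reactivated, 2.78, 1.47 and 2.29 in Early, and 1.53, 2.73, 2.45 and 2.37 in Basal. It was high in every library, and its lowest Late value was 1.14 times the highest other, Reactivated replicate 2. At chr10:111600234-111600887 (653 bases) the values were 3.57, 3.21, 3.63 and 3.45 in Late, 1.41, 2.10 and 1.25 in Reactivated, 1.21, 1.78 and 1.13 in Early, and 1.43, 1.19, 1.12 and 1.14 in Basal, a gap of 1.53 times. This was the only 1 of these 4 regions longer than 142 bases, with 130 to 160 reads per Late library. At chr9:8953433-8953575 (142 bases) the mean was 3.20 ± 0.780 in Late, 0.932 ± 0.247 in Reactivated, 1.27 ± 0.282 in Early and 1.20 ± 0.635 in Basal. At chr1:97731374-97731504 (130 bases) it was 3.41 ± 0.240 in Late, 1.89 ± 0.779 in Reactivated, 2.27 ± 0.991 in Early and 0.631 ± 0.460 in Basal. In that region Early replicates 2 and 3 had 2.90 and 2.79, while the highest Basal library had 1.25, above the lowest Early and Reactivated libraries.

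At the edge of the selection the members merge into the regions next to them. In the 3 members just inside, the lowest Late and the highest other value were both 0.840 at chr16:46557676-46557983, both 1.30 at chr10:121273666-121274932 and both 0.995 at chr18:66403021-66403536. The 3 regions just outside had 0.783 for both at chr1:56547049-56547461, 3.19 at chr1:109490183-109490329 and 1.32 at chr9:86643261-86643792. Around the minimum level, chr10:58454490-58455201 was kept with a mean of 0.832 RPKM, and chr4:3744917-3745174, with 0.827 RPKM and a lowest Late value 1.28 times the highest other, was not. Without a minimum 1569 autosomal regions passed the rest of the rule, and with the minimum doubled 149 did, against 186.4 and 48.4 for a random order. Off the autosomes the rest of the rule was met by 36 of 3365 regions on X (1.07%) and by 6 of 6 on unplaced sequence, where the Late libraries stand apart as described above.

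Besides being lower than in Late, the members differed among the other 3 groups. Basal had the lowest mean of the 4 groups in 629 members (53.5%), and among all eligible regions it was the lowest of the 3 non-Late groups in 38.3%. Reactivated was lowest in 320 members (27.2%, eligible 30.6%) and Early in 227 (19.3%, eligible 31.1%). The second highest mean was that of Early in 483 members (41.1%), of Reactivated in 422 (35.9%) and of Basal in 271 (23.0%). Among eligible regions these groups were the highest of the 3 in 30.5% (Early), 36.2% (Reactivated) and 33.3% (Basal). In 252 members (21.4%) the 3 other means lay within 1.25 times of one another, compared with 14.2% of eligible regions, and in 212 (18.0%) they were at least 2 times apart, compared with 28.5%. A rule that caps all 10 values favours regions where these groups are alike. It caps 4 Basal libraries but 3 each of Early and Reactivated, so it can also shift which group is lowest. The part of these shares that comes from the rule was not tested.

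The median fold of the Late mean was 1.74 over Reactivated, 1.75 over Early and 2.06 over Basal in the members. In 409 members (34.8%) Late had at least 2 times the level of Reactivated, in 396 (33.7%) that of Early and in 635 (54.0%) that of Basal. Over all eligible regions the shares were 1.9%, 2.09% and 8.38%, so the share against Basal was the highest of the 3 there too. In 183 members (15.6%, eligible 0.137%) Late had at least 2 times the level of each of the 3. In 205 members (17.4%) all 4 Late values were over the library median and all 10 others under it. In 250 (21.3%) at least 1 Late value was itself under the library median. These regions were thus below the middle of the table in at least 1 Late library and lower still in all 10 others. Early replicate 2, with 27.8% of its reads inside regions, was the highest other library in 268 members (22.8%), compared with 17.0% of eligible regions. Without it 2542 regions met the rule, 10.8 times the 235.9 of a random order. Without a Late library the count was 1694 to 1938, which is 2.87 to 3.29 times the random number of 589.7, with 1835 without replicate 2 and 1938 without replicate 4. Leaving out any other library gave 1221 to 1578, at 5.18 to 6.69 times the random number. Leaving out a library can only raise the count.

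The contrasts among the 3 groups other than Late were not the ones that chose the members, although the rule caps the values of all 3. They were tested with limma on log2(RPKM / library median + 0.5) over 172143 regions, with Benjamini-Hochberg adjustment and a threshold of 0.05. All 1176 members were among the regions tested. Log2 differences are on this scale with the added 0.5, which understates the change of low regions. The fit took the spread of each region from all 14 libraries, Late included. The rule favours a small Late spread, so the p-values of members draw in part on the values that chose them.

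In Reactivated against Basal, 108 members were higher (9.18%), beside 10.1% of all regions tested, and 46 were lower (3.91%), beside 10.2%. The share of higher members was near that of all regions, and the share of lower members was smaller. The median log2 difference was 0.10 over the members and 0.06 over all regions. The split depended on the scaling. On the deposited RPKM 290 of the 1176 members were higher, beside 24.3% of all regions, and 5 lower, beside 4.78%. In all 25.1% of members and 29.1% of all regions were called on that scale, with medians of 0.40 over the members and 0.39 over all regions, so that scaling moved the whole table upward. With the percentage of reads inside regions as a covariate no member, and no region of the table, passed the threshold. Without Reactivated replicate 3 the number called was 51 (4.34% of members, beside 8.62% of all regions). Without Reactivated replicate 2 it was 90 (7.65%, beside 12.7%) and without Basal replicate 3 it was 98 (8.33%, beside 13.6%). With all libraries it was 154 (13.1%, beside 20.3%), so the calls fell over the whole table too.

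The region chr13:21998756-21999951 (1195 bases) had the smallest adjusted p among members higher in Reactivated than in Basal. It had 0.946, 1.10 and 1.49 times the library median in Reactivated, against 0.234, 0.254, 0.407 and 0.363 in Basal. Late had 2.13, 1.52, 1.81 and 1.75, and Early had 0.706, 0.927 and 0.708, so the 4 groups followed each other without overlap in the order Late, Reactivated, Early, Basal. The gap between Reactivated replicate 1 and Early replicate 2 was the narrowest. The log2 difference of Reactivated minus Basal was 1.04 ± 0.16 (SE), with a limma adjusted p of 0.00239. At chr11:92333469-92333704 (235 bases) Reactivated had 1.31, 1.87 and 1.41, against 0.331, 0.162, 0.259 and 0.295 in Basal, with a difference of 1.41 ± 0.22 and a limma adjusted p of 0.00246. Early was split there, with 1.97 in replicate 2 and 0.781 and 0.579 in the other replicates.

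A different order held at members that were lower in Reactivated than in Basal. At chr6:5445929-5447159 (1230 bases) Reactivated had 0.879, 0.657 and 1.09, against 1.87, 1.88, 2.06 and 1.50 in Basal. Late had 2.97, 2.86, 2.69 and 2.49 and Early 1.73, 1.30 and 1.31, which left Reactivated lowest. The log2 difference was -0.76 ± 0.16, with a limma adjusted p of 0.00542. At chr16:50615628-50615969 (341 bases) Reactivated had 0.324, 0.161 and 0.299, against 0.730, 0.946, 0.772 and 0.712 in Basal, and the difference was -0.76 ± 0.16 with a limma adjusted p of 0.00673. Late there had 2.04, 1.47, 2.56 and 2.09, and Early lay between Reactivated and Basal with 0.484, 0.410 and 0.487. The third of these, chr19:12834154-12834456 (302 bases), averaged 0.552 ± 0.0854 in Reactivated (SD, n = 3) and 1.32 ± 0.154 in Basal (n = 4), with a limma adjusted p of 0.00531. With that covariate each of these calls was lost, at limma adjusted p of 0.107 to 0.168 for the 6 members named in this contrast, which include chr2:104343804-104344218. On the deposited RPKM those at chr6:5445929-5447159 and chr19:12834154-12834456 were lost too.

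In Early against Basal, 92 members were higher (7.82%), beside 7.93% of all regions, and 29 were lower (2.47%), beside 6.73%. The median log2 difference was 0.12 over the members and 0.00 over all regions, and it was above 0 in 66.3% of members and in 50.1% of all regions. On the deposited RPKM 140 of the 1176 members were higher, beside 10.9% of all regions, and 2 lower, beside 1.44%. In all 12.1% of members and 12.4% of all regions were called on that scale, with medians of 0.34 over the members and 0.23 over all regions. The number called was 23 without Early replicate 2 (1.96% of members, beside 4.26% of all regions) and 80 without Basal replicate 3 (6.8%, beside 9.81%). It was 30 when only the libraries of both groups were fitted (2.55%, beside 5.56%). With all libraries it was 121 (10.3%, beside 14.7%), so here too the calls fell over the whole table.

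The region chr5:88828634-88829528 (894 bases) had 1.05, 1.07 and 1.12 in Early, against 0.313, 0.340, 0.227 and 0.427 in Basal. Early was close to Late, which had 1.20, 1.17, 1.29 and 1.13, while Reactivated was between Early and Basal with 0.632, 0.720 and 0.913. The log2 difference of Early minus Basal was 0.94 ± 0.14, with a limma adjusted p of 0.0023. At chr2:104343804-104344218 (414 bases) Early had 0.886, 1.04 and 1.02 and Reactivated 1.16, 1.09 and 1.14, against 0.301, 0.321, 0.440 and 0.293 in Basal. Both differences passed, with 0.82 ± 0.15 for Early minus Basal (limma adjusted p = 0.00469) and 0.96 ± 0.15 for Reactivated minus Basal (limma adjusted p = 0.00246), and they share the Basal libraries. At chr2:47154259-47154448 (189 bases) the difference was 1.05 ± 0.20 (limma adjusted p = 0.00535), on means of 1.27 ± 0.298 in Early and 0.372 ± 0.206 in Basal. Basal replicates 1 to 4 had only 1, 5, 5 and 4 reads there, the first at the lowest possible count.

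Among the members lower in Early, chr7:28017861-28018262 (401 bases) had the smallest adjusted p. Early had 0.183, 0.537 and 0.377, against 1.78, 1.70, 1.67 and 1.64 in Basal. Late had 2.39, 3.02, 2.14 and 2.05, and Reactivated was divided, with 1.93 in replicate 1 and 0.786 and 0.890 in replicates 2 and 3. The log2 difference was -1.37 ± 0.21, with a limma adjusted p of 0.00242. At chr2:30614036-30614232 (196 bases) Early had 0.468, 0.110 and 0.0771, the last at the lowest possible count of 1 read. Basal had 1.19, 1.26, 0.517 and 1.15 there, and the limma adjusted p was 0.00722 for a difference of -1.10 ± 0.23. At chr5:37426351-37427353 (1002 bases) the difference was -0.68 ± 0.15 (limma adjusted p = 0.00865), on means of 0.376 ± 0.0902 in Early and 0.904 ± 0.104 in Basal. Its call was lost on the deposited RPKM and without Early replicate 2, with an adjusted p of up to 0.0544.

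In Reactivated against Early, 7 members were higher (0.595%), beside 2.32% of all regions, and 0 were lower (0.0%), beside 0.945%. At an unadjusted limma p under 0.05, 47 of the 1176 members were higher, beside 22215 of 172143 regions (12.9%). Lower were 63 members, beside 17152 regions (9.96%). With a pseudocount of 0.1 limma called 8 members higher and 3 lower (0.935% of members, beside 3.56% of all regions). The median log2 difference was -0.03 over the members and 0.01 over all regions. The count of 7 was among the least stable. Without Early replicate 2 it was 39, with 24 higher and 15 lower (3.32% of members, beside 9.9% of all regions). Without Reactivated replicate 1 it was 1, a lower call that was none of the 7. It was 4 without Late replicate 1 or 3, 2 without Reactivated replicate 3 or Early replicate 3, and 0 without Early replicate 1 or with only the libraries of both groups. Among all regions the share called fell from 3.26% to 0.0802% without Reactivated replicate 1 and to 0.0866% without Early replicate 1. No region of the table was called with only the libraries of both groups.

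At chr3:55488881-55489349 (468 bases) Reactivated had 1.34, 1.20 and 0.926, against 0.470, 0.483 and 0.258 in Early. Late had 2.16, 1.90, 2.12 and 2.26, and Basal had 1.03, 0.932, 0.909 and 0.778, overlapping Reactivated. The log2 difference of Reactivated minus Early was 0.87 ± 0.17, with a limma adjusted p of 0.0186. At chr11:68850491-68851433 (942 bases) Reactivated had 0.939, 1.11 and 0.866, against 0.370, 0.229 and 0.273 in Early, and the difference was 0.90 ± 0.16 with a limma adjusted p of 0.0145. At chr7:54094237-54094635 (398 bases) it was 0.85 ± 0.20 with a limma adjusted p of 0.0312. All 3 of these calls were lost without Early replicate 1, without Reactivated replicate 1 and with only the libraries of both groups, with an adjusted p of up to 0.155. Leaving out Early replicate 3 ended the calls at chr3:55488881-55489349 and chr7:54094237-54094635. Leaving out Reactivated replicate 2 or 3, or quantile normalization, ended the call at chr7:54094237-54094635.

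Members were a larger share of the regions with a low mean than of those with a high mean. Eligible regions were ranked by their mean over all 14 libraries and divided into 10 equal classes. The share of members was 1.45% in the lowest class (244 regions), 0.812% in the fifth and 0.0949% in the highest (16 regions). The mean RPKM had a median of 1.22 over the members and 1.37 over eligible regions. These means include the 10 values that the rule caps, while in Late itself the members were above the middle of the table. The highest regions were also lower relative to the library median in Late than elsewhere, by the start of the top 0.1% given above, and the part of that in this slope was not tested.

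Region length was not used by the rule. The members had a median length of 550 bases, with quartiles of 371 and 832, against 529 bases with quartiles of 324 and 854 over eligible regions. Members were fewest among the shortest and the longest regions. Up to 200 bases 36 of 13275 regions were members (0.271%), over 300 and up to 500 bases 347 of 42535 (0.816%), over 500 and up to 1000 bases 468 of 59164 (0.791%), and over 2000 bases 7 of 2487 (0.281%). The longest member was chr13:23376106-23379137 (3031 bases), with means of 1.67 ± 0.123 in Late, 1.37 ± 0.0839 in Reactivated, 1.33 ± 0.214 in Early and 0.692 ± 0.119 in Basal. The next, chr12:40682942-40685200 (2258 bases), had 1.59 ± 0.0923, 1.25 ± 0.0872, 1.27 ± 0.219 and 1.03 ± 0.113 in the same groups. In both, Early replicate 2 was the highest other library, and only in the longer one did Basal stand clear below all other libraries. The shortest member, chr6:32899859-32899980 (121 bases), had 16 to 26 reads per Late library and 2 to 18 per other library.

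**Figure D4:**
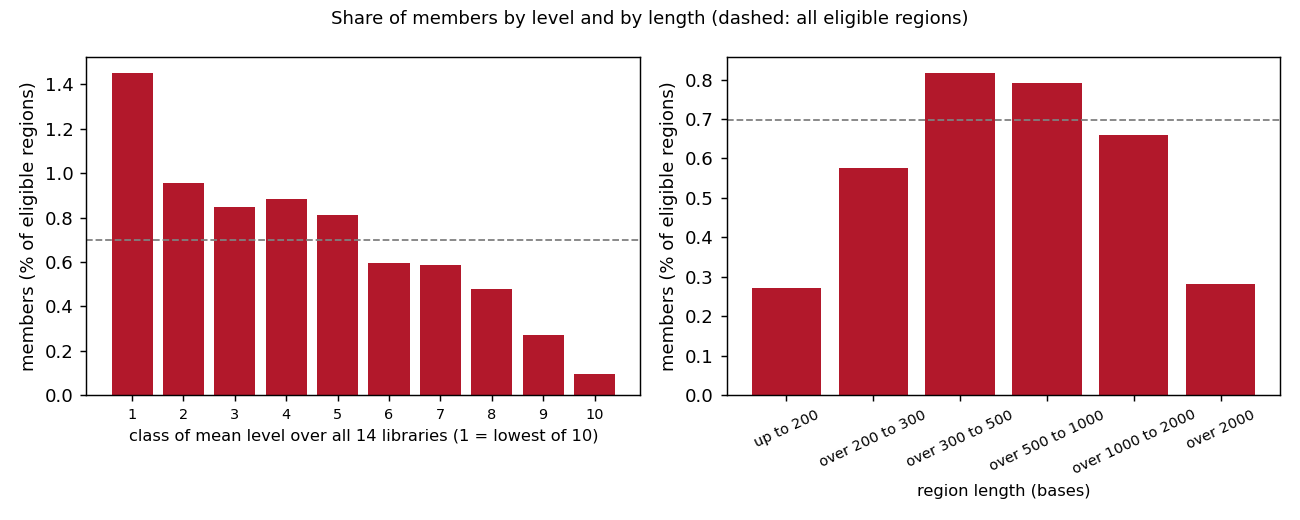
Share of eligible regions that were members, in percent, by class of the mean level over all 14 libraries (left, lowest class first) and by region length in bases (right), with a dashed line at the 0.697% of all eligible regions. The share runs from 1.45% in the lowest class of level to 0.0949% in the highest, and is lowest at both ends of the length scale.

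Members were found on all 19 autosomes. Chromosome 2 held the most, 104 of 12607 eligible regions (0.825%). The share was highest on chromosome 16, with 63 of 4953 (1.27%), where the overall share would give 34.5, and on chromosome 7, with 43 of 3422 (1.26%), where it would give 23.9. It was lowest on chromosome 19, with 12 of 3069 (0.391%). The median fold of the Late mean over the other mean, over all eligible regions, was 1.04 on chromosome 16 and 0.92 on chromosome 7. On chromosome 16 the group medians of eligible regions were 1.1 in Late, 1.11 in Reactivated, 0.997 in Early and 0.987 in Basal. Late was thus above Early and Basal there, but not above Reactivated. On chromosome 7 the group medians of eligible regions were 1.04 in Late, 1.19 in Reactivated, 0.788 in Early and 1.27 in Basal, so the groups other than Late also differed over that chromosome. Chromosome 7 had 3 of the 8 widest gaps.

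**Figure D5:**
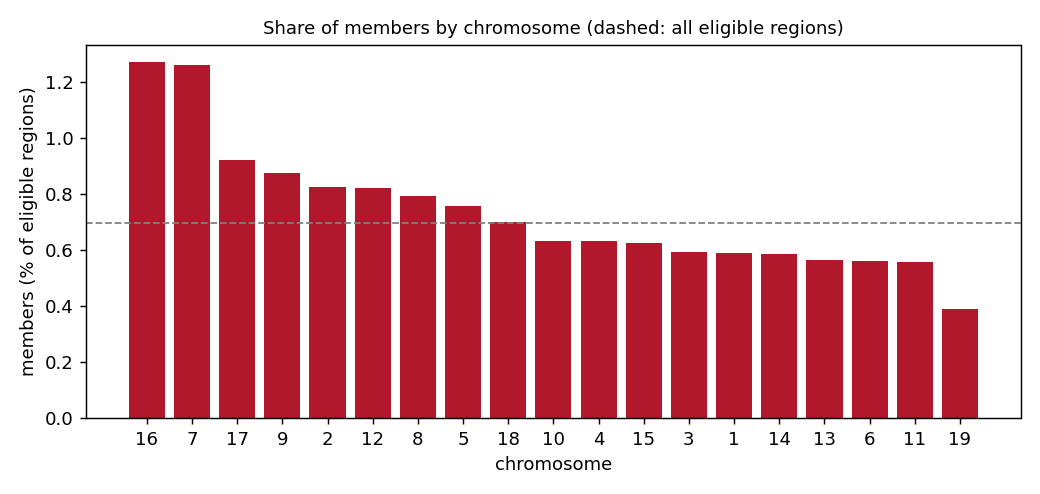
Share of eligible regions that were members on each autosome, in percent. Chromosomes 16 (1.27%) and 7 (1.26%) are highest and chromosome 19 (0.391%) is lowest, against 0.697% over all autosomes.

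Most members had no other member close by. The distance to the nearest other member had a median of 522000 bases, with a range of 943 to 17300000. Another member lay within 1000 bases for 2 members (0.17%) and within 50000 bases for 99 (8.42%). These distances were not compared with those of an equal number of eligible regions, so they do not show that members lie apart. Any other region lay within 1000 bases of 143 members (12.2%), compared with 18.4% of eligible regions, and within 10000 bases of 887 (75.4%), compared with 85.2%. Of 504 windows of 5 Mb, 107 had no member, 277 had 1 to 3, 102 had 4 to 6 and 18 had at least 7. The most were 14 of 412 eligible regions on chromosome 5 from 85 to 90 Mb (3.4%), 10 of 142 on chromosome 8 from 15 to 20 Mb (7.04%) and 10 of 290 on chromosome 16 from 45 to 50 Mb (3.45%). These windows were picked after their counts were seen.

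The closest pair, 943 bases apart, did not share a pattern outside Late. At chr18:46056157-46057127 the mean was 3.08 ± 0.356 in Late, 2.40 ± 0.279 in Reactivated, 2.33 ± 0.181 in Early and 1.82 ± 0.372 in Basal. At its neighbour chr18:46058070-46058955 it was 1.85 ± 0.166 in Late, 0.611 ± 0.144 in Reactivated, 0.754 ± 0.478 in Early and 1.46 ± 0.226 in Basal. Basal was thus the lowest group in the first region and second highest in the second. In the next pair, 1150 bases apart, Basal was the lowest group in both, at 0.898 ± 0.112 in chr2:84220921-84221636 and 0.384 ± 0.255 in chr2:84222786-84223365, where Late had 1.46 ± 0.221 and 1.21 ± 0.200.

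The nearest eligible non-member on each side of a member was described by the same fold. Among these regions, the median fold of the Late mean over the other mean was 0.942 within 1000 bases of a member (136 regions), 1.03 from 1000 to 5000 bases (595 regions), 1.04 from 5000 to 20000 bases (919 regions) and 1.09 farther away (659 regions), compared with 0.953 over all eligible regions. The Late mean exceeded the other mean in 44.1% of the nearest regions, in 54.6%, 55.3% and 58.6% at the next 3 distances and in 43.7% of all eligible regions.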

How the data were processed

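The deposited table holds 1 RPKM value for each of 191271 regions in each of 14 libraries, made by the authors. The submitters' processing notes name the mm9 build and Bowtie2 (version 2.0), DESeq2, DiffBind, MACS2 and SAMtools, with no roles. The sources used here do not give how regions were called or whether all libraries were processed alike. Every value was a whole number of reads after undoing the RPKM steps (100% within 0.01 reads), so totals and read counts were recovered. The lowest value was 1 read, with none at 0, so a count of 1 may stand for an empty region.

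Each library was divided by its median over all regions. Members had the lowest Late value above the highest of the other 10, on autosomes, with a mean of at least 0.83 RPKM. The members and lists were chosen with earlier results of these data known. The regions named are the 8 members with the widest gap, the 4 with the highest Late mean, the 2 closest pairs, the 2 longest and 2 shortest, those at the edges of the rule, and up to 3 per direction with the smallest adjusted p in each contrast without Late.

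Contrasts without Late were fitted with limma 3.58.1 (trend and robust) in R 4.3.3 on log2(RPKM / library median + 0.5), over all 14 libraries, leaving out the 10% of regions with the lowest mean. The code was tested on simulated data. Counts and figures used Python 3.11.15, pandas 2.3.3, numpy 2.4.6, scipy 1.17.1 and matplotlib 3.10.9. Alternatives were other scalings (deposited RPKM, median-of-ratios, quantile), other minimums, a margin, pseudocounts of 0.1 and 1, only the groups compared, a replicate block, a covariate, and leaving out each library.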

Additional observations from a re-analysis of the deposited data

Results flagged for a closer look

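In 76 groups of 4 libraries, Late and Basal at each of the 37 named members (74 groups) and in the median over all members (2 groups), 4 held a library far from the rest by Dixon's criterion, and chance marks about 1 group in 20. At chr7:102230803-102231073 Late replicate 4 had 3.28 times the library median, while the other Late libraries had 2.09 to 2.27. At chr18:46058070-46058955 Basal replicate 1 had 1.12, below 1.53 to 1.60 in the other Basal libraries. At chr19:12834154-12834456 Basal replicate 1 had 1.55, above 1.21 to 1.26 in the others. At chr2:30614036-30614232 Basal replicate 3 had 0.517, below 1.15 to 1.26 in the others.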

How the results depend on the processing

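The number of members was 1161 on the deposited RPKM, of which 626 were members (53.2% of the 1176 and 53.9% of the 1161), and 1352 with median-of-ratios scaling. It was 1934 with quantile normalization, 149 with the minimum doubled, 208 with a margin of 1.25 times and 5717 with Late averaged, and 1221 to 2542 when a library was left out. Members called in Reactivated against Basal numbered 295 on the deposited RPKM, 0 with the covariate and 51 to 172 when a library was left out. In Early against Basal they numbered 30 with only those groups, 61 with the covariate and 23 to 133 when a library was left out. In Reactivated against Early they numbered 4 on the deposited RPKM, 11 with a pseudocount of 0.1, 0 with only those groups, 4 with the covariate and 0 to 39 when a library was left out. The share of all regions called moved as well when a library was left out. It ran from 8.62% to 24.2%, from 4.26% to 18.0% and from 0.0802% to 9.9% in these contrasts, in the same order. With a replicate block the calls were 87, 63 and 2 in these contrasts, but of 9 correlations between same-numbered libraries (-0.261 to 0.065) 0 exceeded 0.1, and 2 were highest with their own number, so the numbers do not pair the libraries. The block also ended the call at chr7:54094237-54094635 in Reactivated against Early. The cause of these shifts was not tested.

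Of the 37 named members, 16 fell below a log2 ratio of 0 between the lowest Late and the highest other value in 19 of 629 alternatives. On the deposited RPKM the log2 ratio was -0.261 at chr1:97731374-97731504, -0.231 at chr18:46056157-46057127, -0.248 at chr2:84220921-84221636, -0.126 at chr2:84222786-84223365, -0.312 at chr13:23376106-23379137, -0.273 at chr12:40682942-40685200 and -0.106 at chr16:46557676-46557983. It was -0.021 at chr10:121273666-121274932, -0.075 at chr13:21998756-21999951, -0.394 at chr11:92333469-92333704, -0.07 at chr2:104343804-104344218, -0.246 at chr5:88828634-88829528, -0.051 at chr2:47154259-47154448 and -0.001 at chr11:68850491-68851433. With median-of-ratios scaling it was -0.013 at chr18:46058070-46058955, -0.001 at chr2:84220921-84221636 and -0.004 at chr18:66403021-66403536, and with quantile normalization -0.061 at chr16:46557676-46557983 and -0.001 at chr18:66403021-66403536. None of the 8 members with the widest gap fell below 0 under any alternative run. Depth limits the shortest members most, where a library can hold 1 or 2 reads.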
